A study of Homo sapiens with 12 samples.

Results

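The respiratory chain and ATP synthase of human mitochondria are built mostly from subunits whose genes lie in the nucleus, and 86 protein coding genes for such subunits are described here out of the 70116 genes of the count table. They were chosen by symbol: NDUFA, NDUFB, NDUFC, NDUFS and NDUFV genes, SDHA to SDHD, symbols that begin with UQCR, CYC1, the COX5 to COX8 genes with a letter and all symbols that begin with ATP5. Of 204 genes with such symbols, 118 were not annotated as protein coding (113 of them processed pseudogenes) and were left out. The 86 comprised 36 genes of complex I, 4 of complex II, 10 of complex III, 16 of complex IV and 20 of complex V, the ATP synthase. NDUFA4 is counted here with complex IV, to which its protein is now assigned. The symbol pattern leaves out COX4I1, COX4I2, NDUFAB1 and NDUFA4L2.

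The genes were measured by RNA-seq in MiaPaCa-2, an established line derived from a human pancreatic carcinoma, which had been transfected with small interfering RNAs (siRNAs). The 12 libraries fell into 4 groups of 3 replicates, all of them transfected. siControl received a control siRNA. siSLC25A1 was directed against the carrier that exports citrate from mitochondria. siACLY was directed against ATP citrate lyase, the cytosolic enzyme that makes acetyl-CoA from exported citrate. siACO1 was directed against cytosolic aconitase, which converts citrate to isocitrate and turns into an RNA-binding regulator of iron genes when it loses its iron-sulfur cluster. The siRNA sequences, the time of harvest and the medium are not given in the sources used here, nor is it said whether replicates were separate cultures, so p-values measure the spread between these libraries, which may be technical.

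Electrons enter the chain at complex I (NADH dehydrogenase) and complex II (succinate dehydrogenase, also an enzyme of the citric acid cycle). They pass through coenzyme Q to complex III, through cytochrome c to complex IV (cytochrome c oxidase) and on to oxygen. Complexes I, III and IV pump protons, and complex V uses the return of the protons to make ATP. Core subunits carry the flavins, iron-sulfur clusters, hemes and catalytic sites, and the many smaller accessory subunits serve assembly and stability. A few core subunits are encoded by mitochondrial DNA, so each of complexes I, III, IV and V draws on both genomes. Citrate is made in the same compartment, from acetyl-CoA and oxaloacetate.

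Library totals ran from 24159424 to 43792811 counts. The targeted transcripts were low in their own groups. SLC25A1 was at 10.5 to 12.9 CPM (counts scaled to a common library size) in siSLC25A1 against 133.2 to 134.5 in siControl, ACLY at 35.5 to 36.4 in siACLY against 493 to 507, and ACO1 at 1.41 to 2.05 in siACO1 against 43.8 to 46.8. Among markers of the labelled cell type, KRT8, KRT18 and KRT19 passed 1 CPM in every library (3 of 5 epithelial markers), and EPCAM and CDH1 were at or near 0. The summed epithelial markers ran from 3604 to 3742 CPM in siControl, 3123 to 3450 in siSLC25A1, 3821 to 3919 in siACLY and 2065 to 2179 in siACO1. Of the fibroblast markers only COL1A2 was present (1 of 4), and the sum was 874 to 894 CPM in siControl and 1545 to 1591 in siACO1. The mesenchymal sum was 3568 to 3716 CPM in siControl and 4371 to 4908 in siACLY, with 3 of 4 markers present. None of 5 blood, 3 endothelial and 5 acinar or islet markers passed 1 CPM in every library, and the last list was at 0 throughout. The part of these shifts in the results below was not tested.

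Of the 86 genes, 76 passed the filter on low counts and were tested. ATP5IF1, which encodes the inhibitor of the ATP synthase, and COX5B, a subunit of complex IV, were listed at 0 in all 12 libraries, as were COX6A2, COX7B2 and COX8C, isoforms known from muscle or testis. NDUFS1, which encodes the largest iron-sulfur subunit of complex I, had 1 count over all libraries, NDUFA6 had 1, NDUFB10 had 2, ATP5MGL had 5 and the readthrough gene ATP5MF-PTCD1 had 26. Several of these subunits belong to complexes that every respiring cell builds, and they are said here only to be listed at 0 or nearly so. Other genes passed the filter with few counts over the 12 libraries. NDUFV2, the iron-sulfur subunit that partners NDUFV1, totalled 485 counts, NDUFA3 459, NDUFA11 437 and NDUFA7 405, and 2 isoforms, COX6B2 and COX7A1, had still fewer.

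Per kilobase of transcript, the siControl level spread widely within each complex, as the plot of levels shows. Length here and below is that of 1 annotated transcript per gene, which need not be the one these cells express. ATP5F1B, the catalytic beta subunit of the ATP synthase, was at the top with 540.9 CPM per kb, followed by ATP5MF, a small membrane subunit, with 447.4 and UQCRH, the hinge protein of complex III, with 435. Next came ATP5MC3, one of the genes for subunit c of the proton-carrying ring, with 299.3 CPM per kb. At the other end stood NDUFA3 with 1.24 CPM per kb, COX6B2 with 0.353 and COX7A1 with 0.238. NDUFV2 was at 1.36 CPM per kb and NDUFV1, whose protein sits beside it in the complex, at 159.1 CPM per kb.

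**Figure D1:**
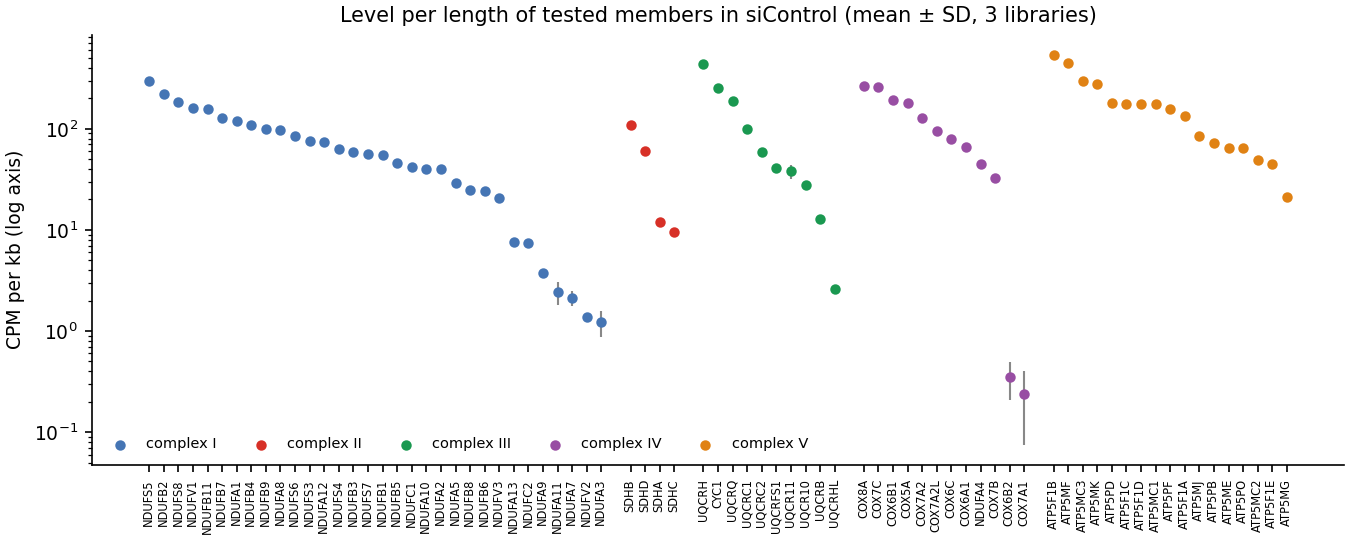
Level of 75 of the tested genes in siControl (mean of 3 libraries, CPM per kilobase of transcript, log axis) by complex, one point per gene with the SD as a bar. ATP5F1B lies highest at 540.9 and COX7A1 lowest at 0.238.

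The counting rule behind the table is not given in the sources used here, so a gene is called uncertain below where at least 20% of its exon bases overlap another gene or at least 20% of its 31-base stretches occur in transcripts of other genes. This held for 28 of the 86 genes and for 25 of the 76 tested. Among those named, at least 20% overlap is found for NDUFB11, NDUFA13, NDUFA2, NDUFA7, NDUFA11, NDUFS7, NDUFV2, COX8A, ATP5MG, SDHD, COX6A1, COX6A2, COX6B2, ATP5MF and ATP5MF-PTCD1, and SDHA, SDHD, UQCRH, NDUFV2, COX6A1, ATP5MF and ATP5MGL share sequence with copies elsewhere.

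Promoters of respiratory genes are known for sites of NRF1, of ETS factors such as GABPA, and of YY1. RefSeq promoter windows (GRCh38.p14, 250 bases before to 50 after the start) were matched for 68 of the 86 genes. The NRF1 motif GCGCATGC, searched as exact letters on both strands, was in 13 of the 68 windows (19.1%), against 830 of 22199 (3.74%) of all promoters of the same length. The ETS motif CCGGAAG was in 19 (27.9%, against 12.8% of all) and the YY1 motif AAGATGGCG in 8 (11.8%, against 2.41%). The CREB motif TGACGTCA was in 5 (7.35%, against 2.26%), and the SP1 motif GGGCGG in 41 (60.3%, against 56.3%). At least 1 of the NRF1, ETS and YY1 motifs stood in 30 of the 68 windows. A match describes the letters of the window and is not a binding site. The windows below belong to NDUFA8, called lower in all 3 knockdowns, NDUFS7, one of the largest falls in siACLY, and the complex II subunits SDHB, called in none with all libraries, and SDHD, called in siSLC25A1. Each runs from 210 bases before the start to 10 after it, on the gene's strand, with NRF1, ETS and CREB matches in capitals.
NDUFA8 (chr9:122159770-122159989, minus strand): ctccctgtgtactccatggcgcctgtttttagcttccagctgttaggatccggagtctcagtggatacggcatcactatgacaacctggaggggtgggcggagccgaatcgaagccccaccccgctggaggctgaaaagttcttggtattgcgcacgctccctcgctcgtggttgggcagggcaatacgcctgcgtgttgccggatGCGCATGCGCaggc
NDUFS7 (chr19:1383697-1383916, plus strand): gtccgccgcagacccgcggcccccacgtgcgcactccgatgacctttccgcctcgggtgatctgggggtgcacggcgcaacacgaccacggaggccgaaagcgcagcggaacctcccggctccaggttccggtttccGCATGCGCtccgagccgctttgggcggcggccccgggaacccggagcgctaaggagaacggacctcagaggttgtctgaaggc
SDHB (chr1:17054023-17054242, minus strand): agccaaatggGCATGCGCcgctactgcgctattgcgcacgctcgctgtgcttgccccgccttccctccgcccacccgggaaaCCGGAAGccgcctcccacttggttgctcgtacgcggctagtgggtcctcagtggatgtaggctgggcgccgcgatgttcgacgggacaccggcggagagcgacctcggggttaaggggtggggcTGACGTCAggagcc
SDHD (chr11:112086663-112086882, plus strand): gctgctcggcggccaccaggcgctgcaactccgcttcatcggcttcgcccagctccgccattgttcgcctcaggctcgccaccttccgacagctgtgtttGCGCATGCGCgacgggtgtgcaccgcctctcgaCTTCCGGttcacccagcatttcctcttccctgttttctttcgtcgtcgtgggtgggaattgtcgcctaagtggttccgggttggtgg
The NDUFA8 window holds 2 overlapping NRF1 matches, on opposite strands, that begin 4 and 2 bases before the start. In SDHD such a pair begins 110 and 108 bases before the start, with an ETS match at 77 bases. NDUFS7 has 1 NRF1 match, 73 bases before the start. SDHB has NRF1 at 200, ETS at 128 and CREB at 4 bases before the start, and it was called in no knockdown with all libraries. NDUFC1, which had the largest called fall of the members in siACLY, holds only an SP1 match, and NDUFS8 and COX7B, both called lower in all 3 knockdowns, hold none of the 5 motifs in their windows. These genes are examples, and a link between motifs and calls was not tested.

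Replicate 3 of siACO1 stood apart from the other libraries, and siACO1 changes of members below are given with and without it where a value is described. Its members' median deviation from the siControl mean was 0.10 on the log2 scale, against -0.18 and -0.15 in siACO1 replicates 1 and 2. In it 22 of the 76 tested genes lay below the siControl mean, against 62 and 62 in the other siACO1 libraries, 65 to 66 in siSLC25A1 and 65 to 69 in siACLY. In that library the deviation of genes from their own mean over all libraries, not from siControl, followed transcript length. Spearman's rho was -0.328 across 11215 genes with a length and a mean log2 CPM above 1, short transcripts being high. The same rho was 0.170 to 0.215 in the siSLC25A1 libraries, in which short transcripts were low, and between -0.078 and 0.023 in the other 8. Genes are not independent replicates, and these rho values describe libraries. Length matters for these genes because they are short: the median over the 76 was 923 bases, against 2478 bases over 15384 tested genes with a length, and 43 of the 76 (56.6%) were under 1 kb, against 17.3% of all.

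**Figure D2:**
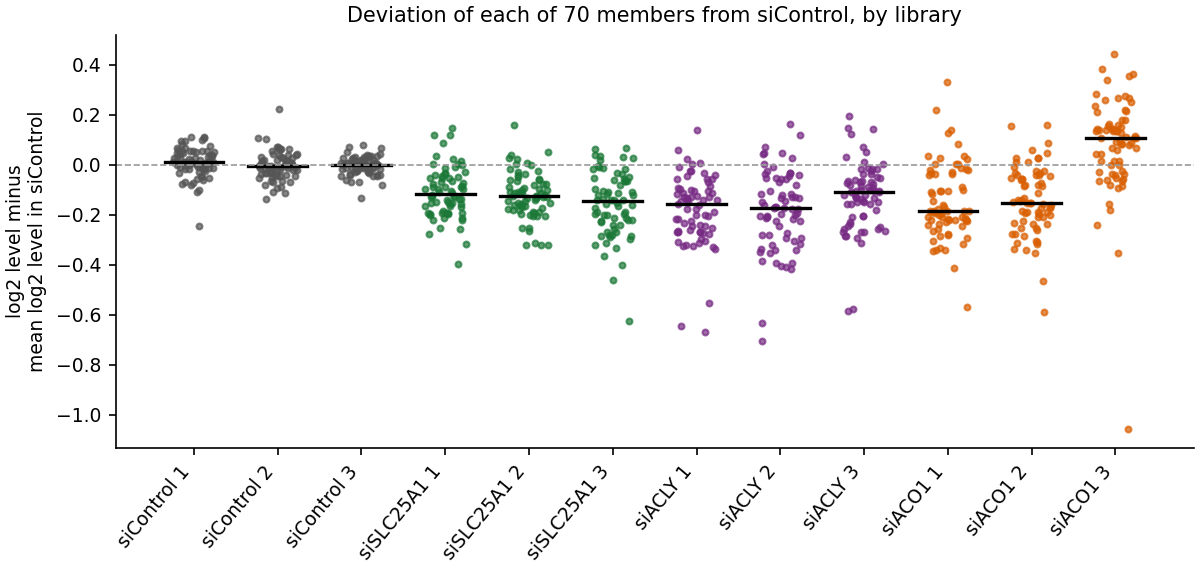
Deviation of each gene from its siControl mean (log2 CPM) in each of the 12 libraries, for the 70 genes with at least 5 CPM in siControl, one point per gene with the median as a bar. The medians of the siSLC25A1 and siACLY libraries and of siACO1 replicates 1 and 2 lie below 0, and that of siACO1 replicate 3 lies above it.

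The summed level of the tested genes was 8655, 8564 and 8595 CPM in the siControl libraries. It was 7994, 7894 and 7804 CPM in siSLC25A1, 91.8% of siControl on average, and 7725, 7693 and 7909 CPM in siACLY, 90.4% of siControl. In siACO1 the sums were 7715, 7748 and 8953 CPM. All siSLC25A1 and siACLY libraries and the first pair of siACO1 libraries lay below every siControl library, and siACO1 replicate 3 lay above all of them. With it the siACO1 mean was 94.6% of siControl (8139 ± 705 CPM, SD, n = 3), and without it the mean of the remaining libraries was 7732 CPM, with no SD given. In these bulk samples fewer cells of a type and less RNA per cell cannot be told apart, and the levels are shares of each library's total.

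All 5 complexes were lower in siSLC25A1 and siACLY. Complex I summed to 2434 ± 38.5 CPM in siControl (SD, n = 3, as for each sum here), 2202 ± 20.4 in siSLC25A1 and 2224 ± 63.9 in siACLY. Complex II was at 373 ± 8.52 CPM in siControl, 351 ± 5.27 in siSLC25A1 and 352 ± 10.2 in siACLY, the smallest relative difference of the 5 in both knockdowns (94.2% and 94.3% of siControl). Complex III was at 1314 ± 14.7 CPM in siControl, 1219 ± 17.6 in siSLC25A1 and 1163 ± 15.4 in siACLY. For complex IV the sums were 1016 ± 11.5, 935.5 ± 13.5 and 902 ± 22.6 CPM, and for complex V they were 3468 ± 13.8, 3189 ± 52.7 and 3135 ± 30.5 CPM in the same order. In each complex, every siSLC25A1 and every siACLY library was below every siControl library.

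In siACO1 the complexes showed the same split between libraries. Complex I summed to 2242, 2254 and 2623 CPM, complex II to 336, 347 and 375, complex III to 1132, 1149 and 1316, complex IV to 908, 897 and 1092, and complex V to 3096, 3101 and 3548 CPM. Replicates 1 and 2 were below every siControl library in all 5 complexes. Replicate 3 was above every siControl library in complexes I, IV and V and within their range in complexes II and III.

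**Figure D3:**
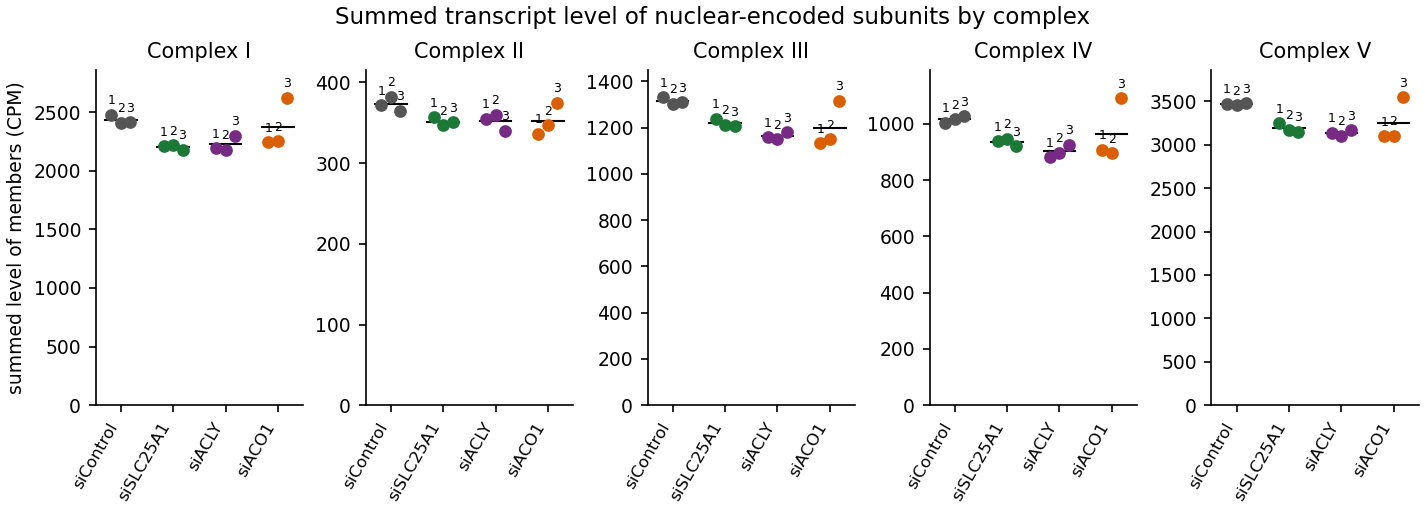
Summed CPM of the tested genes of each complex in each library, points for libraries (with the replicate number) and lines for group means. siSLC25A1 and siACLY lie below siControl in every complex, and siACO1 replicate 3 lies above the other siACO1 libraries in each.

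In siSLC25A1, 16 of the 76 genes fell against siControl and none rose (edgeR quasi-likelihood F test, adjusted p under 0.05 over all 16197 genes tested). Of all genes tested, 19.6% were called, 9.27% lower and 10.3% higher. Unless another setting is named, "called" refers to this fit of all 12 libraries, and settings that would add a call are not all listed. In what follows a pair of values in parentheses gives a log2 change and its edgeR adjusted p. The median change of the 76 was -0.12 on the log2 scale, with 67 of 76 below 0, against 8212 of 16197 and a median near 0 over all genes. The count moved when siACO1 replicate 3, a library of neither group, was left out of the shared fit: 36 genes then fell and none rose (11.9% and 13% of all genes), with the same median. Without siControl replicate 1 or siSLC25A1 replicate 3, 9 fell, with no share of all genes given here as background for these omissions. The genes that fell were 9 of 33 in complex I, 1 of 4 in complex II, none of 10 in complex III (4 without siACO1 replicate 3), 2 of 12 in complex IV and 4 of 17 in complex V.

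NDUFA5, an accessory subunit of the matrix arm of complex I (ENSG00000128609.16, chr7:123536997-123558255, GRCh38), had one of the largest falls in siSLC25A1. Its level was 56.3, 58.0 and 53.1 CPM in the siControl libraries and 45.9, 44.6 and 47.2 CPM in siSLC25A1. The groups did not overlap, which was required of the genes named here for the largest changes against siControl and so adds no support. The change was -0.28 ± 0.052 (log2, SE, edgeR adjusted p = 0.000185). In siACLY it was at 52.1, 50.2 and 51.9 CPM (-0.12, not called, adjusted p = 0.0282 without siACO1 replicate 3, 0.0381 without siControl replicate 3 and 0.0297 with the 2 groups alone). In siACO1 it was at 54.9, 54.1 and 59.2 CPM and not called.

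NDUFB11, an X-linked accessory subunit of the membrane arm (chrX:47142216-47145504), was at 229, 216.6 and 214.2 CPM in siControl and 184.6, 182.7 and 176 CPM in siSLC25A1. Every siSLC25A1 library was below every siControl library (log2 change -0.28 ± 0.055, edgeR adjusted p = 0.000596). Its exons overlap RBM10 over 45.8% of their bases, so its counts are uncertain. It was not called in siACLY (204.3, 202.6 and 217.2 CPM; adjusted p = 0.0412 without siACO1 replicate 3 and 0.0418 with the 2 groups alone) or in siACO1 (220.5, 218.6 and 263 CPM; 0.026 with library totals in place of TMM, where it was higher).

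SDHD, which anchors complex II in the inner membrane and helps bind coenzyme Q (chr11:112086773-112120013), was at 85.1, 91.7 and 86.6 CPM in siControl and 76.7, 70.2 and 71.9 CPM in siSLC25A1. The groups did not overlap (log2 change -0.27 ± 0.059, edgeR adjusted p = 0.00166). In siACLY 1 library of 3 was as low (85.7, 84.6 and 72.0 CPM), and the difference was not called (adjusted p = 0.119, and 0.0464 without siACLY replicate 1). In siACO1 it was at 77.0, 78.1 and 86.3 CPM, not called, but called without siACO1 replicate 3 (-0.18, 0.0114), without siACLY replicate 3 (adjusted p = 0.049) and with a correction for transcript length (-0.14, 0.0264). Overlap with neighbours that include TIMM8B and copies elsewhere leave this gene uncertain.

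NDUFA8, an accessory subunit on the intermembrane side of complex I (chr9:122144058-122159819), fell in all 3 knockdowns. Its level was 83.2, 82.2 and 83.2 CPM in siControl, 72.6, 66.3 and 67.8 in siSLC25A1, 71.9, 74.9 and 75.8 in siACLY and 70.4, 69.1 and 81.2 in siACO1. No library of the 3 knockdowns reached the siControl range. The log2 changes were -0.27 ± 0.054 in siSLC25A1 (edgeR adjusted p = 0.000501), -0.16 ± 0.053 in siACLY (0.0173) and -0.17 ± 0.053 in siACO1 (0.0114). The siACLY call was lost without siACLY replicate 1 (adjusted p = 0.0768). The siACO1 call was lost without siACO1 replicate 1 or 2 (0.0664 to 0.088) and was -0.25 (adjusted p = 3.31e-05) without replicate 3. Library totals in place of TMM also lost the siACLY and siACO1 calls (0.0665 and 0.0521).

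NDUFV1, which binds NADH and the flavin at the entry of complex I, fell in siSLC25A1 and siACLY. It was at 255.2, 248.1 and 258.6 CPM in siControl, 225.6, 228.5 and 230.2 in siSLC25A1 and 227.9, 225.2 and 227.9 in siACLY. The log2 changes were -0.15 ± 0.042 (edgeR adjusted p = 0.00782) and -0.16 ± 0.042 (0.00273), with no overlap. In siACO1 it was at 247.1, 244.2 and 273.1 CPM and was not called.

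Of the 3 genes for subunit c of the ATP synthase ring, ATP5MC2 fell in siSLC25A1, from 101.9, 89.7 and 94.7 CPM to 82.2, 82.6 and 76.7 CPM (log2 change -0.24 ± 0.070, edgeR adjusted p = 0.018). The call was lost without siControl replicate 1, siSLC25A1 replicate 1 or siSLC25A1 replicate 3 (adjusted p 0.059 to 0.0851). ATP5F1A, the alpha subunit of the catalytic head, fell from 781.3, 786.6 and 783.5 CPM to 736, 711.2 and 712.5 (-0.12 ± 0.040, adjusted p = 0.0292), a call lost without any siControl library or without siSLC25A1 replicate 2 or 3 (0.078 to 0.11).

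The siSLC25A1 libraries were also low in short transcripts in general, and the members were lower than genes of their length. Among transcripts under 0.75 kb, the median change of all genes was -0.07 and that of the 27 members was -0.15. Between 0.75 and 1 kb the medians were -0.07 and -0.10 (16 members), and in the longest class they were 0.03 and -0.12 (6 members). With a correction for transcript length in the fit, the median of the 76 moved from -0.12 to -0.06, with 16 genes lower and 1 higher, against 10.2% and 10.7% of all genes in that fit.

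**Figure D4:**
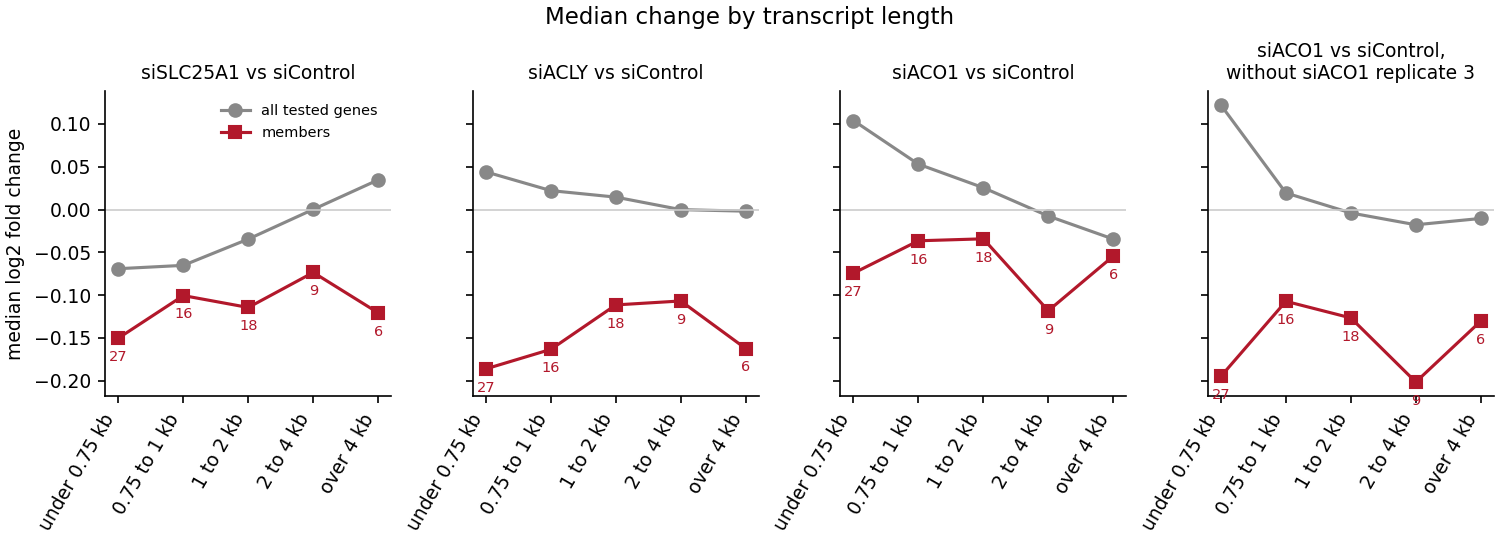
Median log2 change against siControl by transcript length class for all tested genes and for the respiratory genes, in each knockdown and in siACO1 without replicate 3; the number of respiratory genes in each class is printed. The respiratory genes lie below all genes of the same length in every class and knockdown.

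In siACLY, 28 of the 76 genes fell against siControl and 1 rose, against 18.3% and 18.4% of all genes tested (36.7% in either direction). The median of the 76 was -0.16, with 72 of 76 below 0 against 7894 of 16197 genes. Without siACO1 replicate 3, 45 fell and 1 rose (21% and 19.6% of all genes), and the median was -0.17. The falls were 11 of 33 in complex I, none of 4 in complex II, 5 of 10 in complex III, 6 of 12 in complex IV and 6 of 17 in complex V. Short transcripts in general were not low here: under 0.75 kb the median of all genes was 0.04 and that of the members -0.19. With the length correction 31 fell and 1 rose (18% and 20.7% of all genes), with a median of -0.14.

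NDUFC1, a small accessory subunit of the membrane arm of complex I (ENSG00000109390.13, chr4:139266880-139302551), had the largest called change of the 76 in any comparison with siControl. It was at 35.2, 33.0 and 33.6 CPM in siControl and 21.3, 21.9 and 22.6 CPM in siACLY, 64.5% of siControl. The change was -0.63 ± 0.068 (edgeR adjusted p = 1.69e-08). In siSLC25A1 it was at 29.8, 27.3 and 27.6 CPM (-0.27 ± 0.067, adjusted p = 0.00481) and in siACO1 at 26.7, 27.3 and 32.0 CPM (-0.24 ± 0.067, 0.00471). All 9 knockdown libraries were below all siControl libraries. Without siACO1 replicate 3 the siACO1 change was -0.33 (adjusted p = 7.59e-05).

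NDUFS7 and NDUFS8 are core subunits that pass electrons along iron-sulfur clusters to coenzyme Q, and NDUFS7 carries the last cluster of the path. NDUFS7 (chr19:1383527-1395589) was at 55.6, 60.4 and 57.8 CPM in siControl and 46.1, 45.7 and 38.8 in siACLY, 75.4% of siControl (-0.41 ± 0.058, edgeR adjusted p = 2.01e-06). In siACO1 it was at 49.99, 49.5 and 48.95 CPM (-0.23 ± 0.058, adjusted p = 0.00241; -0.22 and 0.00302 without replicate 3), and in siSLC25A1 at 51.7, 53.1 and 56.5 CPM, not called. In siACO1 replicate 3 this gene did not stand above the other siACO1 libraries. Its exons overlap another gene over 37.9% of their bases, so the counts are uncertain.

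NDUFS8 (chr11:68030617-68036644) fell in all 3 knockdowns. It was at 152.9, 146.2 and 142.8 CPM in siControl, 126.2, 127.7 and 128 in siSLC25A1, 116.6, 111.2 and 122.2 in siACLY and 127, 124.8 and 141.1 in siACO1. The groups did not overlap with siControl in any of them. The changes were -0.21 ± 0.047 (edgeR adjusted p = 0.00153), -0.34 ± 0.047 (1.51e-06) and -0.17 ± 0.047 (0.00498), and the last was -0.23 (2.3e-05) without siACO1 replicate 3.

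ATP5F1D, the delta subunit of the rotating stalk of the ATP synthase (ENSG00000099624.8, chr19:1241746-1244826), fell in all 3 knockdowns, from 128.3, 120.1 and 123.1 CPM in siControl. It was at 112.5, 107.9 and 106 CPM in siSLC25A1, 99.6, 93.1 and 102.6 in siACLY and 83.3, 82.3 and 97.0 in siACO1. Every knockdown library was below every siControl library. The changes were -0.19 ± 0.053 (edgeR adjusted p = 0.0119), -0.33 ± 0.053 (1.18e-05) and -0.50 ± 0.053 (1.4e-08). The first was lost without siControl replicate 1 or siSLC25A1 replicate 3 (0.0663 to 0.0781), and with the correction for transcript length it was -0.10 (0.0684). The siACO1 change was -0.58 (2.06e-13) without siACO1 replicate 3.

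In siACLY the other genes for subunit c were called lower and ATP5MC2 was not (-0.07). ATP5MC1 was at 102.2, 103.9 and 106.7 CPM in siControl and 84.4, 81.8 and 83.8 in siACLY (-0.32 ± 0.051, edgeR adjusted p = 9.79e-06). ATP5MC3 was at 259.3, 246.6 and 250.1 CPM in siControl and 208.4, 201.4 and 212.7 in siACLY (-0.28 ± 0.069, 0.00478). ATP5MC2 was at 87.0, 87.2 and 98.7 CPM in siACLY, which overlapped its siControl range, and it was not called between siSLC25A1 and siACLY. Without siACO1 replicate 3, ATP5MC1 was called lower in siSLC25A1 (-0.13, 0.0114) and siACO1 (-0.13, 0.0128) as well. ATP5MC3 was then called lower in siACO1 (-0.18, 0.000162), and ATP5MC2 was not called there (-0.13, 0.0551). The 3 genes encode the same mature protein with different import sequences. ATP5F1A fell to 692.3, 685.5 and 668.2 CPM in siACLY (-0.20 ± 0.040, 0.000207), and ATP5F1B, its partner in the catalytic head, was not called at 966.7, 972.6 and 969 CPM against 984.4, 998.9 and 1001 in siControl.

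Complex III and IV genes with falls in siACLY included UQCRC1, one of the core proteins of complex III, at 198.6, 197.7 and 201.7 CPM in siControl and 179.9, 177.2 and 181.2 in siACLY (-0.15 ± 0.042, edgeR adjusted p = 0.00475). UQCRH went from 268.3, 254.2 and 265.8 CPM to 209.5, 205.7 and 218.2 (-0.32 ± 0.066, 0.00119), with copies elsewhere that leave it uncertain. NDUFA4 went from 91.8, 95.9 and 97.5 CPM to 81.7, 84.1 and 82.3 (-0.20 ± 0.057, 0.00713). COX7A2, the widespread isoform of subunit VIIa, went from 101.6, 98.4 and 98.4 CPM to 82.6, 88.0 and 81.1 (-0.25 ± 0.059, 0.00163). None of these groups overlapped. UQCRH was at the threshold but not called in siSLC25A1 (-0.19, 0.05), and not called in siACO1 (-0.09, 0.288). Without siACO1 replicate 3 it was called lower in siSLC25A1 (-0.19, 3.33e-05) and in siACO1 (-0.21, 2.64e-05). Some other settings also called it lower in each, among them the 2 groups alone in siSLC25A1 (0.000164) and the length correction in siACO1 (0.0063).

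In siACO1, 18 of the 76 genes fell against siControl and 4 rose, against 19.3% and 17.8% of all genes tested (37.1% in either direction). The share of members called lower, with all libraries, is near that of all genes. The median was -0.06, with 52 of 76 below 0 against 7957 of 16197 genes. Without siACO1 replicate 3, 39 fell and 1 rose, against 20% and 17.4% of all genes, the median was -0.15 and 64 of 76 were below 0. By complex the falls were 8 in complex I, 1 in II, 3 in III, 3 in IV and 3 in V with all libraries, and 11, 3, 6, 8 and 11 without that library. The count of falls thus rested on 1 library. With a correction for transcript length and all libraries, 24 fell and 2 rose (19.3% and 19.6% of all genes), with a median of -0.09.

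CYC1, the cytochrome c1 of complex III, fell in siACO1 from 319.1, 307.8 and 309 CPM to 246, 243.9 and 279.8 CPM (-0.28 ± 0.045, edgeR adjusted p = 1.16e-05; -0.35 and 3.56e-10 without replicate 3). All 3 libraries were below every siControl library. It also fell in siACLY, to 278.7, 269.8 and 286.9 CPM (-0.16 ± 0.045, 0.00493), and was at 285.8, 285.1 and 298.3 CPM in siSLC25A1, below the siControl range but not called (0.0996, and 0.0118 without siACO1 replicate 3 and 0.0204 with the 2 groups alone).

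SDHA, the flavoprotein that oxidizes succinate (chr5:218241-256700), was at 28, 28.6 and 28.4 CPM in siControl and 22.7, 22.8 and 24.96 in siACO1 (-0.27 ± 0.063, edgeR adjusted p = 0.00108; -0.32 and 0.000213 without replicate 3). It was not called in siSLC25A1 (30.8, 27.6 and 28 CPM) or siACLY (26.15, 26.78 and 26.04 CPM). Copies elsewhere hold 41.8% of its 31-base stretches, so its counts are uncertain. The other subunits of complex II, SDHB and SDHC, were called in none of the 3 knockdowns with all libraries. With siACO1 replicate 3 left out, SDHB was called lower in siACO1 (-0.12, 0.025) and SDHC lower in siACLY (-0.10, 0.0263), as it was with the 2 groups alone (0.0253). SDHB, the iron-sulfur subunit, was at 128.3, 127.8 and 122.8 CPM in siControl, 126, 117.7 and 124.6 in siSLC25A1, 124.2, 123.2 and 119.2 in siACLY and 110.1, 122.2 and 127.4 in siACO1.

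COX5A, a subunit of complex IV on the matrix side, was at 106, 101.7 and 98.9 CPM in siControl and 83.3, 80.8 and 97.5 in siACO1 (-0.23 ± 0.055, edgeR adjusted p = 0.0014; -0.32 and 3.03e-07 without replicate 3). It also fell in siACLY, to 92.3, 88.7 and 88.5 CPM (-0.19 ± 0.054, 0.00812), a call that was lost without siControl replicate 1 (0.0515). UQCRC2, the second core protein of complex III, was at 148.4, 159.4 and 156.6 CPM in siControl and 130.9, 133.8 and 144.9 in siACO1 (-0.18 ± 0.046, 0.00234). UQCRC1 fell to 175.1, 174.1 and 194 CPM (-0.14 ± 0.042, 0.00933), lost without siACO1 replicate 1 or 2 (0.0579 to 0.0666) or with library totals (0.0659). ATP5F1B fell from the values above to 884.3, 867.2 and 940.2 CPM (-0.15 ± 0.038, 0.00256). Without replicate 3 these 3 changes were -0.23 (3.4e-05), -0.19 (3.29e-05) and -0.19 (9.21e-06).

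NDUFA13, a membrane subunit of complex I known also as GRIM-19, was called lower in siACO1 mainly through 1 library. It was at 7.53, 7.18 and 7.93 CPM in siControl and 6.64, 6.40 and 3.63 in siACO1 (-0.45 ± 0.16, edgeR adjusted p = 0.0271). Without siACO1 replicate 3 the change was -0.21 and not called (0.191), and it was also lost without siControl replicate 1 or 3 (lowest adjusted p 0.0653), with library totals (0.0664) and with the 2 groups alone (0.07). Its exons overlap another gene over 44.1% of their bases.

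The 4 genes that rose in siACO1 were small subunits. ATP5MG, subunit g of the ATP synthase, which lies where dimers of the enzyme meet (ENSG00000167283.9, chr11:118401154-118431496), was at 31.01, 34.24 and 35.35 CPM in siControl and 42.1, 37.4 and 42.8 in siACO1, 121.6% of siControl. All siACO1 libraries were above all siControl libraries (0.28 ± 0.068, edgeR adjusted p = 0.00145), and without replicate 3 the change was 0.24 (0.00614). Overlap with another gene over 26.1% of its exon bases leaves it uncertain. UQCR10, a small complex III subunit, was at 23.9, 27.1 and 24.7 CPM in siControl and 29.3, 28.0 and 30.3 in siACO1 (0.21 ± 0.069, 0.0164). The call was lost without siControl replicate 1 or 3 or siACO1 replicate 3 (0.0529 to 0.107), where without the last the change was 0.18.

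NDUFA2, an accessory subunit near the NADH end of complex I, was at 33.3, 32.1 and 31.3 CPM in siControl and 35.4, 34.1 and 39.2 in siACO1 (0.17 ± 0.062, edgeR adjusted p = 0.0289). It was lost without siControl replicate 2 or 3 or siACO1 replicate 3 (0.079 to 0.191, with a change of 0.11 without the last), with no filter on low counts (0.0551) and with the length correction (0.14, 0.0542). COX8A, the widespread isoform of subunit VIII of complex IV (chr11:63974607-63976543), was at 130.8, 134.1 and 137.2 CPM in siControl, 146.2, 138.3 and 155 in siACO1 and 114, 117 and 109.9 in siACLY. It rose in siACO1 (0.13 ± 0.047, 0.0327) and fell in siACLY (-0.24 ± 0.048, 0.000212). The rise was lost without any siControl library, siSLC25A1 replicate 3, or siACO1 replicate 1 or 3 (0.0504 to 0.143, with a change of 0.08 without the last). It was also lost with no filter (0.0617), the length correction (0.08, 0.133) and DESeq2's Wald test (0.0535). The fall in siACLY was called under every omission of 1 library. Both genes overlap a neighbour, COX8A over 34.5% and NDUFA2 over 24.1% of their exon bases.

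Across the 3 comparisons, which share the siControl libraries, 34 of the 76 genes were called in none with all libraries. The 7 called lower in all 3 were NDUFA8, NDUFA10, NDUFB7, NDUFC1 and NDUFS8 of complex I, COX7B of complex IV and ATP5F1D of complex V. Another 12 were called in siACLY alone, 5 lower in siACO1 alone, 4 in siSLC25A1 alone and 3 higher in siACO1 alone. How many of all genes share each pattern was not counted, so these counts have no background beside them. Of all genes tested, 19.6% were called in siSLC25A1, 36.7% in siACLY and 37.1% in siACO1. COX7B, a small subunit of complex IV, was at 78.9, 82.0 and 78.8 CPM in siControl, 66.8, 73.1 and 61.9 in siSLC25A1, 67.3, 63.1 and 67.7 in siACLY and 63.4, 65.9 and 80.6 in siACO1. Its siSLC25A1 call (-0.25 ± 0.073, edgeR adjusted p = 0.0218) was lost without siControl replicate 1 or 2 or siSLC25A1 replicate 1 or 3 (0.0504 to 0.104). Its siACO1 call (-0.19 ± 0.073, 0.0489) was lost without any siControl library, siSLC25A1 replicate 1, siACLY replicate 1 or 3, or siACO1 replicate 1 or 2 (0.0534 to 0.192). It was lost as well with the replicate block (0.074), library totals (0.0927), at least 10 counts in every library (0.0559) and the 2 groups alone (0.0743), and was -0.31 (1.04e-05) without siACO1 replicate 3. NDUFA10 and NDUFB7, chosen after their values were seen, also lost calls on omission of 1 library. NDUFA10, an accessory subunit of complex I, changed by -0.13 in each of the 3. Its call was lost in siSLC25A1 without any of the 6 libraries (0.0532 to 0.169) and in siACLY without siControl or siACLY replicate 1 (0.0599 to 0.11). In siACO1 it was lost without siControl replicate 1 or siACO1 replicate 1 or 2 (0.0605 to 0.115). NDUFB7 changed by -0.25, -0.32 and -0.17, and the last was lost without any siControl library or siACO1 replicate 1 or 2 (0.0622 to 0.213). The siACO1 changes of these genes without siACO1 replicate 3 were -0.18 (0.000143) and -0.27 (7.93e-05). A gene called in 1 comparison and not in another is not shown to differ between them, which the direct comparisons of the knockdowns address.

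**Figure D5:**
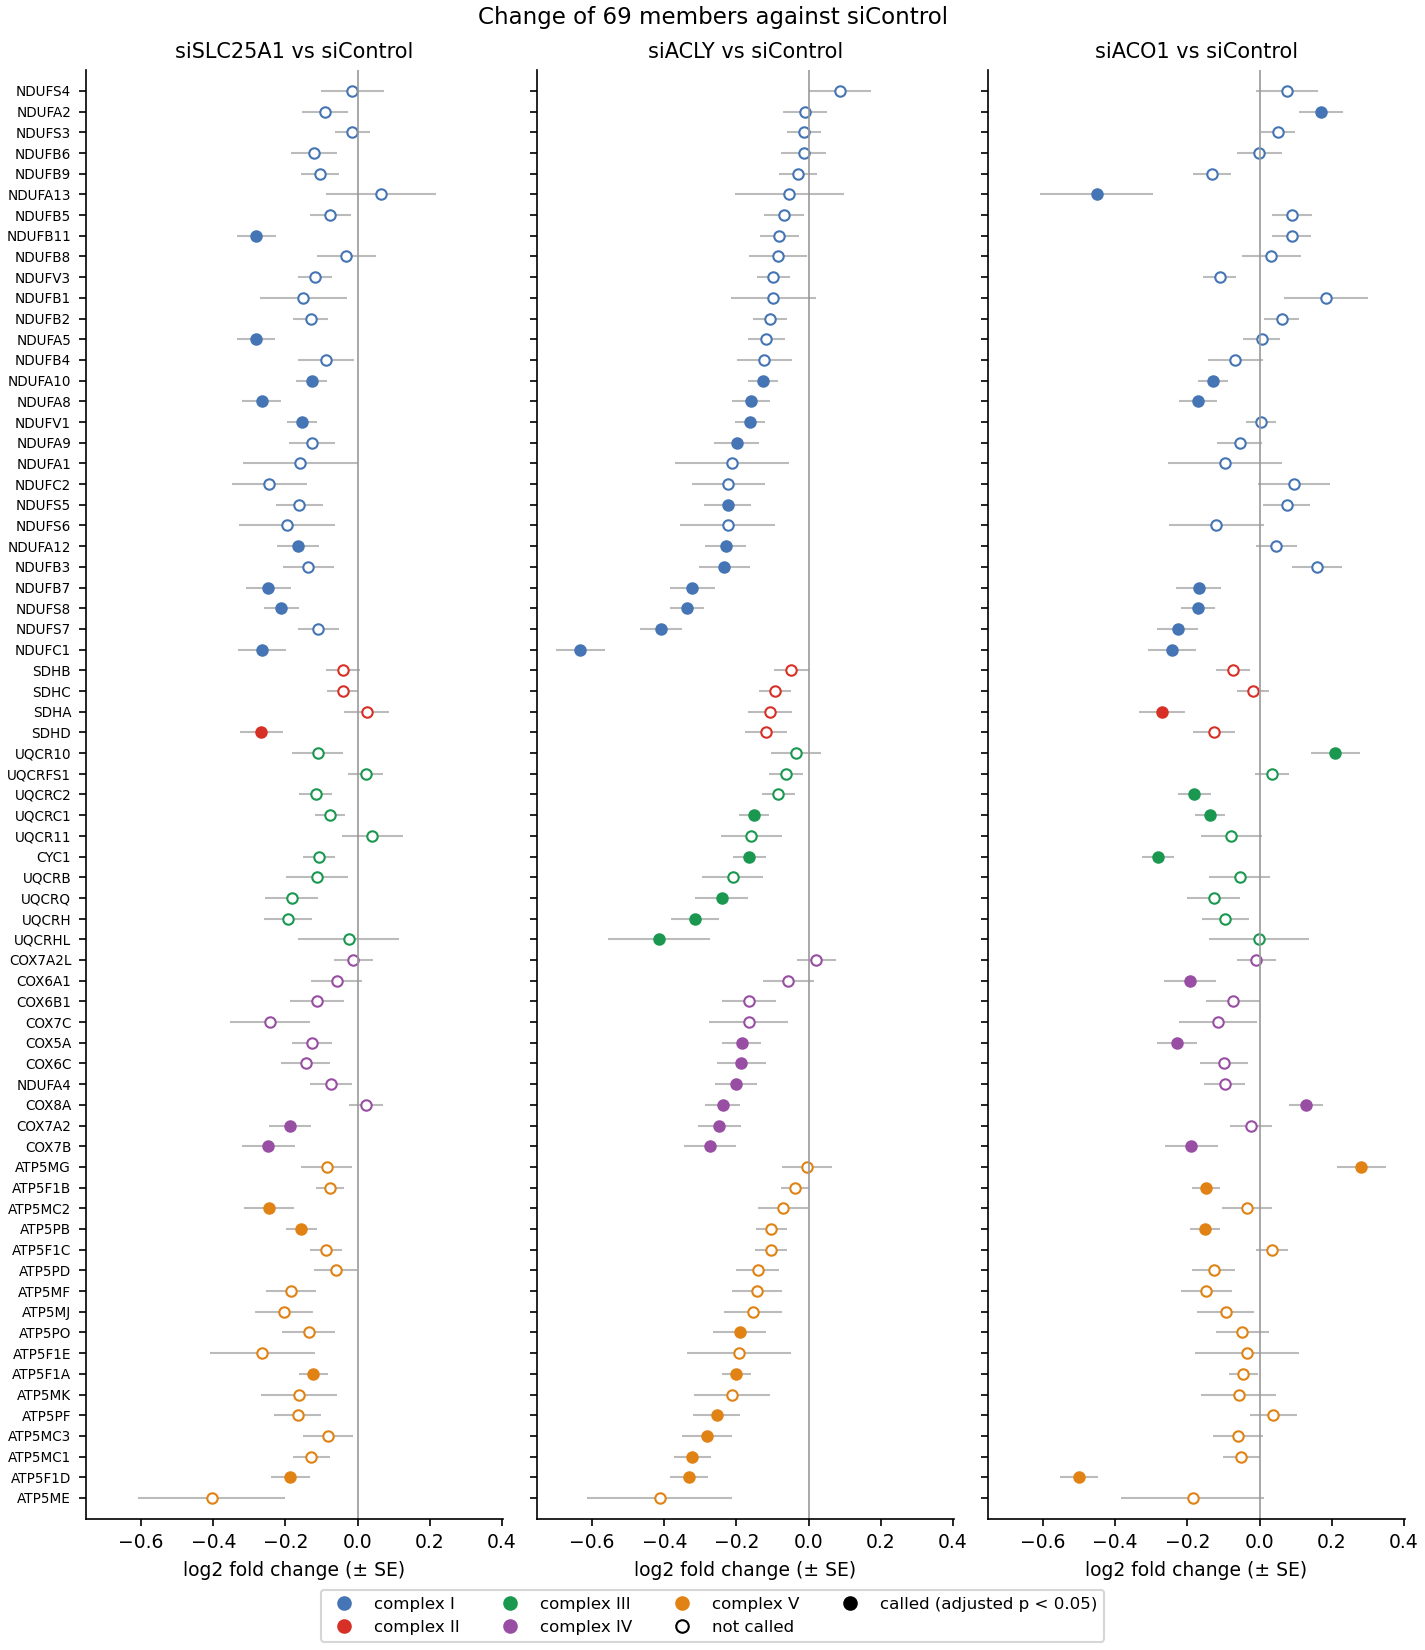
Log2 change against siControl of 69 genes with at least 5 CPM in siControl, by complex and knockdown, with the SE as a bar and filled where called at adjusted p under 0.05. Most points lie below 0 in siSLC25A1 and siACLY, with NDUFC1 lowest in siACLY at -0.63 and ATP5MG highest in siACO1 at 0.28.

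Between siSLC25A1 and siACLY, 8 of the 76 genes were higher in siSLC25A1 and 3 were lower, against 17.5% and 16.3% of all genes (33.8% in either direction). The counts were 13 and 5 without siACO1 replicate 3 (20.5% and 17.7% of all genes), and 21 and 3 with the length correction (16.6% and 18.5%). Without siSLC25A1 replicate 1 or 2, 7 were called in either direction, and without siACLY replicate 1 or 2, 6 were. For these omissions the share of all genes called is not given here, so those counts have no background. NDUFC1 was higher in siSLC25A1 than in siACLY by 0.37 ± 0.070 (edgeR adjusted p = 0.000129) and NDUFS7 by 0.30 ± 0.059 (0.000201). UQCRHL, a gene related to UQCRH, was higher by 0.39 ± 0.15 (0.0392), at 5.79, 5.19 and 5.80 CPM against 3.89, 3.49 and 5.55, and lost the call without siSLC25A1 replicate 1 or 3 or siACLY replicate 1 or 2 (0.098 to 0.18) or with library totals (0.0649). Among those lower in siSLC25A1 were NDUFA5 (-0.16, 0.0158) and NDUFB11 (-0.20, 0.00657). NDUFA5 lost the call without siSLC25A1 replicate 2 or siACLY replicate 1 or 3 (0.0547 to 0.0858).

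Between siSLC25A1 and siACO1, 5 genes were higher in siSLC25A1 and 17 lower, against 21.8% and 20.3% of all genes (42.1% in either direction). The balance of that split rested on siACO1 replicate 3: without it 12 were higher and 10 lower (21.3% and 18.9% of all genes), and the median turned from -0.06 to 0.03. The length correction with all libraries gave 12 higher and 11 lower (20.9% and 22% of all genes), with a median of 0.02. NDUFB11 was lower in siSLC25A1 by -0.37 ± 0.055 (edgeR adjusted p = 6.99e-06; -0.27 and 3.04e-07 without that library), and ATP5MG by -0.37 ± 0.070 (8.2e-05; -0.32 and 0.000343). NDUFA13 was higher by 0.52 ± 0.16 (0.0124), a call lost without siSLC25A1 replicate 2 or siACO1 replicate 3 (0.0516 and 0.0822). ATP5F1D was higher in siSLC25A1 by 0.31 (adjusted p = 2.38e-05), SDHA by 0.29 (0.000432) and CYC1 by 0.17 (0.00252). These differences were 0.40 (3.02e-09), 0.35 (8.24e-05) and 0.25 (7.05e-07) without siACO1 replicate 3.

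Between siACLY and siACO1, 6 genes were higher in siACLY and 24 lower, against 21.4% and 20.7% of all genes (42.1% in either direction). Without siACO1 replicate 3, 13 were higher and 18 lower (20.9% and 20.5%), and the median moved from -0.12 to -0.04. With the length correction 9 were higher and 21 lower (22.7% and 21.2%), with a median of -0.09. NDUFB3, an accessory subunit of the membrane arm, was at 37.9, 37.7 and 36.8 CPM in siACLY and 45.2, 44.9 and 57.4 in siACO1 (-0.39 ± 0.071, edgeR adjusted p = 6.6e-05; -0.27 and 0.000171 without that library). Each siACLY library was below each siACO1 library. COX8A was lower in siACLY by -0.37 (2.82e-07) and NDUFC1 by -0.39 (3.23e-05). When siACO1 replicate 3 was left out these were -0.33 (1.05e-07) and -0.31 (0.000304). UQCRHL was lower in siACLY (-0.41 ± 0.14, 0.0211), lost without siACLY replicate 1 or 2 or siACO1 replicate 1 or 3 (0.061 to 0.124) or with the 2 groups alone (0.052). NDUFA13 was higher in siACLY (0.40 ± 0.16, 0.0485), a call lost without any of 9 libraries, siACO1 replicate 3 among them (0.365), or with library totals, the 2 groups alone, the replicate block or the length correction (0.0628 to 0.129).

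Isoforms used in different tissues were measured very unevenly. COX6A1, the widespread isoform of subunit VIa, was at 35.3, 39.2 and 37.7 CPM in siControl, and its muscle isoform COX6A2 was listed at 0. COX6A1 was called lower in siACO1, where it was at 32.7, 29.5 and 36.0 CPM (-0.19 ± 0.071, edgeR adjusted p = 0.0348), lost without siControl replicate 2 or 3 or siACO1 replicate 1 or 2 (0.0747 to 0.225) or with library totals (0.109), and -0.27 (0.00198) without replicate 3. COX6B1 was at 126.8, 125.9 and 135.2 CPM in siControl and was not called in any knockdown. Without siACO1 replicate 3 it was called lower in siSLC25A1 (-0.11, 0.0416), siACLY (-0.17, 0.00085) and siACO1 (-0.19, 0.000838). Its siACLY difference was also called with no filter (0.00526), the 2 groups alone (0.00146), the replicate block (0.0189), the length correction (0.0184) and DESeq2 (0.0498). Its testis isoform COX6B2 stayed under 1 CPM in all libraries, as did the muscle isoform COX7A1. COX7A2 was lower in siSLC25A1 as well (86.4, 87.0 and 88.7 CPM, -0.19 ± 0.059, 0.0251), a call lost without any one of the 6 libraries compared (0.0566 to 0.0992), and with the length correction it was -0.11 (0.0745). COX7A2L, a relative that takes part in joining complexes III and IV, was at 108.1, 105.3 and 107.5 CPM in siControl and was called in none. UQCRFS1, the Rieske iron-sulfur protein of complex III, was at 148.1, 141.7 and 137.9 CPM in siControl and likewise was called in none.

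The 13 subunits encoded by mitochondrial DNA were all tested. Where libraries are made by poly(A) capture, such transcripts can be read unevenly. In siSLC25A1 4 fell and none rose, in siACLY 6 fell and none rose, and in siACO1 1 fell and 1 rose, with medians of -0.12, -0.19 and -0.02 (without siACO1 replicate 3, 7 and 8 fell in the first 2, and 3 fell and 1 rose in siACO1). Of all genes tested, 9.27% were called lower and 10.3% higher in siSLC25A1, 18.3% and 18.4% in siACLY, and 19.3% and 17.8% in siACO1. Without siACO1 replicate 3 these shares were 11.9% and 13%, 21% and 19.6%, and 20% and 17.4%. They are the background for the lists that follow as well, and no list was tested as a set. MT-CO3, of complex IV, fell by 0.37 on the log2 scale in siSLC25A1 (edgeR adjusted p = 2.62e-05) and by 0.20 in siACLY (0.00656). MT-ATP6, of the ATP synthase, fell by 0.29 in siSLC25A1 (6.26e-05). MT-CO1 fell in siACLY (-0.22, 0.00044) and siACO1 (-0.17, 0.00394), and MT-ND2 rose in siACO1 (0.22, 0.00162). The siACO1 values of MT-CO1 and MT-ND2 were -0.22 (1.41e-05) and 0.13 (0.00266) without replicate 3. Of the subunits outside the symbol pattern, COX4I1 fell in siACLY (-0.26, 8.46e-05) and siACO1 (-0.29, 2.03e-05; -0.38, 1.11e-11 without replicate 3), and NDUFAB1 was called in none with all libraries and lower in each without siACO1 replicate 3 (adjusted p 0.00367 to 0.0241). Each call named in this list held when any 1 library was left out, and so did those named for the other genes outside the 86, unless a loss is given.

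Assembly factors, which build the complexes and are not part of them, moved in both directions. For complex I, 3 of 19 fell in siSLC25A1, 2 fell and 2 rose in siACLY, and 5 fell and 3 rose in siACO1 (5, 4 and 8 falls and 0, 2 and 2 rises without siACO1 replicate 3). ECSIT fell in siSLC25A1 (-0.39, edgeR adjusted p = 1.77e-05) and in siACO1 (-0.77, 3.09e-11; -0.83 without replicate 3), NDUFAF4 fell in siACLY (-0.30, 5e-05) and siACO1 (-0.34, 1.09e-05; -0.40 without replicate 3), and NDUFAF3 rose in siACO1 (0.45, 1.98e-06; 0.36, 7.92e-06 without replicate 3). For complex III, 2 of 6 fell in siSLC25A1, 4 fell and 1 rose in siACLY, and 3 rose in siACO1 (4 rose without replicate 3). UQCC1 fell in siSLC25A1 (-0.24, 0.000464) and rose in siACO1 (0.28, 1.99e-05; 0.24 without replicate 3), and UQCC2 rose in siACLY (0.35, 0.000134) and siACO1 (0.35, 9.3e-05; 0.29 without replicate 3).

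For complex IV, 3 of 22 tested factors fell in siSLC25A1, 3 fell and 4 rose in siACLY, and 5 fell and 4 rose in siACO1 (5, 6 and 6 falls and 0, 4 and 4 rises without siACO1 replicate 3). SCO1, which delivers copper, fell in siACLY (-0.22, 0.000467) and siACO1 (-0.21, 0.000628; -0.19 without replicate 3). In siACO1 COX10, which makes heme O, fell (-0.56, 1.25e-08; -0.56 without replicate 3) and COA3 rose (0.45, 6.58e-05; 0.35 without replicate 3). Of 6 factors of the ATP synthase 2 fell in siSLC25A1, 1 fell in siACLY, and 3 fell and 2 rose in siACO1 (3 and 1 without replicate 3). TMEM70 fell in siACLY (-0.30, 0.000596) and siACO1 (-0.25, 0.00309; -0.32 without replicate 3), and ATPAF2 fell in siSLC25A1 (-0.39, 0.000536). Of 4 factors of complex II, 1 fell in siACLY and none was called in siSLC25A1 or siACO1, with 1 more fall, in siSLC25A1, when siACO1 replicate 3 was left out.

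Of 12 tested genes for electron carriers and coenzyme Q synthesis, 2 fell in siSLC25A1, 2 fell and 2 rose in siACLY, and 2 fell and 3 rose in siACO1 (3 and 2 without replicate 3). CYCS, cytochrome c itself, fell in siACLY (-0.25, edgeR adjusted p = 3.34e-05) and siACO1 (-0.20, 0.000558; -0.27 without replicate 3). PDSS1, which starts the side chain of coenzyme Q, fell in siACLY (-0.32, 0.000371) and siACO1 (-0.38, 5.85e-05; -0.43 without replicate 3), and COQ8B fell in siSLC25A1 (-0.56, 5.08e-07).

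Of 12 tested regulators of respiratory gene expression, none rose in any knockdown with all libraries, and 3 fell in siSLC25A1, 5 in siACLY and 8 in siACO1 (4, 5 and 10 without siACO1 replicate 3, with 1 that rose in each of siSLC25A1 and siACLY). The shares of all genes called lower with all libraries were 9.27%, 18.3% and 19.3% in the same order, and 10.3%, 18.4% and 17.8% were called higher. ESRRA, a nuclear receptor that acts on many respiratory genes, was at 112.3 CPM on average in siControl, 102.4 in siSLC25A1, 79.5 in siACLY and 85.0 in siACO1. It fell in siACLY (-0.50, 9.79e-10) and siACO1 (-0.40, 4.23e-08; -0.41 without replicate 3). In siSLC25A1 it was lower (-0.13, 0.0388), a call lost without any siControl library, siSLC25A1 replicate 1 or 2 or siACLY replicate 1 (0.0503 to 0.147). Its coactivator PPARGC1B fell in siACLY (-0.55, 4.38e-06) and siACO1 (-0.52, 1.09e-05; -0.41 without replicate 3). YY1 fell in siACLY (-0.35, 5.79e-08) and siACO1 (-0.40, 6.03e-09; -0.43 without replicate 3). POLRMT, the mitochondrial RNA polymerase, fell in siACLY (-0.43, 2.3e-08) and siACO1 (-0.33, 2.27e-06; -0.355 without replicate 3), and TFAM, which packages mitochondrial DNA, fell in siACLY (-0.24, 6.01e-05) and siACO1 (-0.19, 0.00096; -0.20 without replicate 3). NRF1 was called in none with all libraries, and GABPA fell in siACO1 (-0.19, 0.00202; -0.22 without replicate 3). These values stand beside those of the subunits as measurements, and a link between them was not tested.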

How the data were processed

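The authors deposited 1 table of raw read counts per gene, not normalized, with 1 column for each of the 12 libraries, per the file headers. The submitters' processing notes name CASAVA, FastQC, Trim Galore, STAR 2.7.0e and DESeq2 and the builds GRCh38 and GRCm39, without their roles. The counting tool, annotation and use of strand are not given in the sources used here. Symbols were matched by Ensembl identifier for 62700 of 70116 genes. Coordinates are GENCODE 29 on GRCh38, and promoters are RefSeq GRCh38.p14. The length of a gene is that of 1 annotated transcript, the principal protein coding one with the best support level where there is one. Among ties the median length was taken. These lengths ran from 305 to 13566 bases over the tested members.

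Counts were filtered with filterByExpr, scaled by TMM and fitted with edgeR 4.0.16 (R 4.3.3, robust quasi-likelihood, 12 libraries, 4 groups, 8 residual degrees of freedom). Two-sided F tests were adjusted by Benjamini-Hochberg over 16197 genes, and genes were called at adjusted p under 0.05. Levels are TMM-scaled CPM, which are shares of a library. Alternatives were DESeq2 1.42.0, library totals, no filter, 2 groups only, a replicate block, length offsets, a minimum change, certain counting and leaving out each library. The script was checked on simulated counts.

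Genes named are, per comparison with siControl and direction, up to 4 called members with the largest change, at least 5 CPM and groups that do not overlap; the 3 largest differences between knockdowns; members picked by role or as isoforms; and the 3 highest and lowest levels per length. From the other lists, up to 2 called genes per direction and comparison follow the same order; other names were chosen after their values were seen. Results of 1 member named by this rule are not reported here. The members and lists were chosen with earlier results of these data known.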

Additional observations from a re-analysis of the deposited data

How the results depend on the processing

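For the genes named by the rule, 135 comparisons were recomputed under the alternatives, giving 2691 values. Of these 2514 kept their side of the threshold, 109 lost the call and 68 gained one. The sign differed in 64 of the 2514, for 27 comparisons not called in either setting and with changes of at most 0.0896 in size in the main fit. The changes in the alternatives could be larger. NDUFV2, a gene with few counts, went from 0.0041 in siACO1 to as low as -0.37 when a library was left out. The number of members called moved more. The share of all genes called can move with the setting too. Without siACO1 replicate 3 it was 24.9% in siSLC25A1, 40.6% in siACLY and 37.3% in siACO1, against 19.6%, 36.7% and 37.1% with all libraries. For most other settings the share of all genes is not given here, so those counts have no background. In siSLC25A1 against siControl the 16 calls became 25 with no filter, 38 with only the 2 groups fitted and 9 with a minimum change of 0.2. They ran from 9 to 36 when a library was left out, and with length offsets the median was -0.0642. Of the 51 tested members with certain counting alone, 14 were called with all libraries and 29 without siACO1 replicate 3. In siACLY the 29 calls became 46 with 2 groups and 19 with the minimum change, and ran from 25 to 46. In siACO1 the 22 became 9 with the minimum change and ran from 15 to 40. In siSLC25A1 against siACLY the 11 became 17 with 2 groups, 24 with length offsets and 4 with the minimum change, and ran from 6 to 18. In siACLY against siACO1 the 30 became 17 with the minimum change and ran from 22 to 32, and in siSLC25A1 against siACO1 the 22 ran from 15 to 25. With library totals in place of TMM, siACO1 had 7 higher and 10 lower (4 and 18 with TMM), and siSLC25A1 against siACLY had 5 higher and 6 lower (8 and 3). The causes were not tested.

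With the replicate number as a block the calls were 17 in siSLC25A1, 30 in siACLY and 22 in siACO1, and 12, 22 and 31 between the knockdowns in the order above of siSLC25A1 against siACLY, siSLC25A1 against siACO1 and siACLY against siACO1. The share of all genes called with the block is not given here. Over 18 pairs of libraries with the same number, the correlation of deviations from the group means ran from -0.11 to 0.172, with 2 above 0.1. Pairs with unlike numbers ran from -0.155 to 0.136. These values do not settle whether the numbers pair the samples.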
